A study of Mus musculus with 9 samples.

Results

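The genes described here encode the protein components of the cytosolic ribosome. They were chosen by gene symbol alone, as every listed gene whose symbol is Rpl, Rps or Rplp with a number and, where present, the ending a, x, l or l1, together with Rpsa. The rule found 82 of 22068 listed genes, 51 of the large subunit and 31 of the small subunit. Of these, 76 were tested (48 large, 28 small) among 10100 genes tested in all, and 6 were not, among them Rpl10l, Rpl3l, Rpl5, Rps28 and Rpsa. The rule misses a few ribosomal protein genes with other symbols, which are given separately.

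A cytosolic ribosome is built from ribosomal RNA and a fixed set of proteins, most of them present once per ribosome, so that a cell needs the products of all these genes in matched amounts. Their messengers typically begin with a C followed by an unbroken run of pyrimidines, the 5′ terminal oligopyrimidine or TOP element, through which mTOR signalling and the RNA-binding protein LARP1 control their translation. A change in translation would not be visible in messenger levels, which are what was measured here.

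RNA-seq was made from primary mouse embryonic fibroblasts (MEFs) of strain C57Bl/6 at passage 2, with 3 libraries per condition and 9 in all. CRX is a homeobox transcription factor known for its role in photoreceptors, and the study compared what its eutherian and its metatherian version do when expressed in cells that do not normally make it. Cells were electroporated with a plasmid that carried a puromycin resistance gene and V5-tagged human CRX (eutherian CRX), V5-tagged opossum CRX (metatherian CRX) or no homeobox gene (control). All 3 conditions then received puromycin for 5 days. The time from the end of selection to RNA extraction is 48 h in the sample labels and differs in the paper's methods. The cells were pools that survived selection, not clones, and nothing in the labels ties the 3 libraries of a condition to separate embryos, so that the p-values measure the spread between these libraries, which may be technical.

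The libraries held 54145701 to 94699657 counts on genes. The mouse Crx row held 0 counts in each control library, 313 to 995 counts in the eutherian CRX libraries and 0 to 4 counts in the metatherian CRX libraries, so that it checks the labels of the human gene but not those of the opossum gene. All 12 fibroblast markers were above 2 FPKM on average, and the summed level of the list was 9840 to 11000 FPKM in control, 5470 to 9570 in eutherian CRX and 6060 to 9790 in metatherian CRX. Above 2 FPKM on average were also 3 of 6 neural and 2 of 5 adipocyte markers. Their sums ranged over the libraries from 15.2 to 37.9 and from 21 to 78.4 FPKM. Of 8 macrophage and leukocyte markers, 2 were above 2 FPKM on average and none was at 0 in every library. Their sum was 9.13 to 33.9 FPKM in control, 4.58 to 18.8 in eutherian CRX and 2.69 to 9.03 in metatherian CRX. The part of these differences in the results was not tested, and in bulk RNA fewer cells of a type and less RNA per cell cannot be told apart. Replicate 3 of metatherian CRX and replicate 3 of eutherian CRX stood apart from the other libraries in these genes and are described below before any comparison.

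The start of transcription is where the TOP element lies, so the 30 bases around annotated starts are shown for some of the members with long pyrimidine runs, for members that the comparisons turn on, and for a paralogue without such a run. RefSeq (GRCm38.p6) gave 74 promoters for 62 of the 82 members. Each line runs from 15 bases before the start to 15 bases from it on, 5′ to 3′ on the gene's strand, and capitals mark the run of pyrimidines that begins at the annotated first base.
Rpl27a (chr7:109519180-109519209, plus strand): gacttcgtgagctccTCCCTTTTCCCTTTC
Rpl15 (chr14:18270972-18271001, minus strand): gtgggagaaagccttCTTCCTTTCCTCTgg
Rpl35 (chr2:39005117-39005146, minus strand): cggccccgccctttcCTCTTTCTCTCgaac
Rps6 (chr4:86857353-86857382, minus strand): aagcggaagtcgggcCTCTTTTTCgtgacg
Rpl38 (chr11:114668565-114668594, plus strand): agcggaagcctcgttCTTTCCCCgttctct
Rps27 (chr3:90213634-90213663, minus strand): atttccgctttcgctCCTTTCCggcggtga
Rpl39 (chrX:37085208-37085237, minus strand): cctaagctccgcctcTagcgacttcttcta
Rpl39l (chr16:10170213-10170242, plus strand): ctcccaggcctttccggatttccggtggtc
Rps16 (chr7:28350674-28350703, plus strand): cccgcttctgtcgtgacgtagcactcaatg

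The first 6 of these lines each open with an unbroken pyrimidine run, of 16 bases in Rpl27a, 13 in Rpl15, 11 in Rpl35, 9 in Rps6, 8 in Rpl38 and 7 in Rps27. The run of Rpl27a begins with a T and the others with a C, whereas the annotated starts of Rpl39l and Rps16 are purines. An annotated start need not be the start used in these cells. Over all members, a C at the start that opens a run of at least 5 pyrimidines was found in 17.6% of the 74 promoters, in 2.28% of the promoters of genes tested here and in 2.51% of all 32851 RefSeq promoters. A run of at least 8 pyrimidines that begins with a C within 15 bases of the start was found in 39.2%, 11.8% and 11.2%.

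Motifs were searched on both strands from 250 bases before to 50 after each start, and shares are again given for members, genes tested and all promoters. CTTTCC, a pyrimidine motif that overlaps with the runs above, was present in 50%, 26.5% and 26.6%. CCGGAAG, the core recognised by ETS factors, was present in 35.1%, 18.4% and 8.86%, and AAGATGG, part of the YY1 motif, in 16.2%, 7.39% and 6.34%. Both were more frequent among members than in either background. GGGCGG, the core of the Sp1 motif, was present in 59.5%, 65.7% and 35.7%, so that members lay near the genes tested, which include them. TAATCC, the core that CRX-type homeodomains bind, was present in 5.41%, 5.25% and 7.06%. The members with it are Rps9, Rps28, Rpl39l and Rpl9. A match describes these letters only.

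Messenger levels of the members were compared with each other per length, as FPKM computed from the deposited counts and averaged over the 9 libraries. Although the proteins are used in near-equal amounts, these levels were far from equal. Among the highest were 606 FPKM for Rpl8, a protein near the peptidyl transferase centre, and 477 for Rpl4, which lines the peptide exit tunnel. Rplp1 stood at 347 FPKM, Rps3 at 304 and Rplp0 at 281. The median member stood at 17.5 FPKM and the median tested gene at 11.3 FPKM. Levels exceeded 100 FPKM in 16 members, and were under 10 FPKM in 34 and under 2 FPKM in 7.

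At the low end, Rpl3l, a striated muscle paralogue of Rpl3, stood at 0.013 FPKM and Rpl10l, a testis paralogue of Rpl10, at 0.0068 FPKM. Core subunits that every ribosome needs were also listed low, with Rpl5 at 1.23 FPKM and Rps28 at 0.458. For 4 members, Rps18, Rps28, Rpl10a and Rps10, the gene is listed on chromosome 17 and on further sequences of the assembly, so that their FPKM is divided by a length that counts the same exons more than once. The medians of the subunits were close, 17.7 FPKM for the large and 17.3 for the small. A few members held most of the counts: Rpl4 alone took 12.6% of all member counts, the leading 5 47.1%, and the leading 20 82.3%.

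Ribosomal protein genes have many processed pseudogenes, and reads from a stretch that another gene shares cannot be assigned to one of them. In the GENCODE M21 transcripts, the median member shared 30.9% of the 75-base windows of its coding transcripts with at least 1 other gene, 75 bases being the length of 1 read of a pair. Members with more shared sequence tended to have lower levels. Over the 82 members, which share libraries and counting, the Spearman correlation of the share with the FPKM was -0.36 for 75-base windows and -0.24 for 36-base windows. The 16 members with under 10% of windows shared had a median of 71.7 FPKM, and the 11 with at least 70% shared had 5.51 FPKM with a highest value of 32.5. Rpl5 is one of the latter, with 84.1% shared. How the counting treated reads with several alignments is not given in the sources used here, and its part in the levels was not tested.

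**Figure D1:**
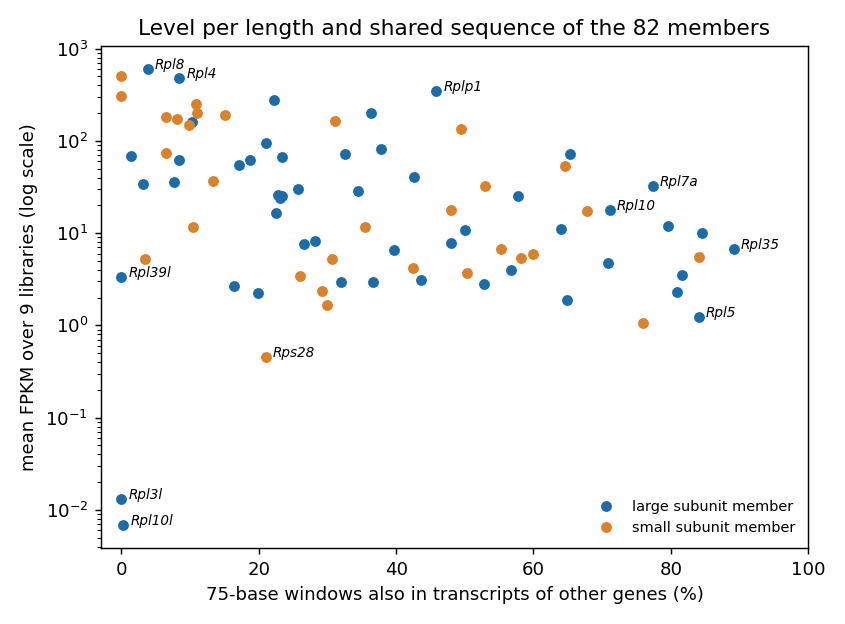
Mean FPKM over the 9 libraries (log axis) of the 82 members against the percentage of 75-base windows of their coding transcripts that also occur in another gene, large subunit in blue and small subunit in orange. Members with at least 70% of windows shared all lie at or under 32.5 FPKM, while the 3 labelled members of highest level, Rpl8, Rpl4 and Rplp1, have 3.9%, 8.47% and 45.9% shared. Rpl3l and Rpl10l are low with 0% and 0.316% of windows shared.

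Ribosomal protein genes that the symbol rule misses were counted as well. Gnb2l1, which encodes the small subunit scaffold RACK1, stood at 332 FPKM, Rps3a1 at 40.4, Rpl36al at 29.2, and Fau, a fusion with a small subunit protein, at 5.44. Of the missed genes, 5 were tested. EdgeR called 0.0297%, 0.604% and 0% of all genes in the 3 comparisons given next, and 19.5%, 8.56% and 11.5% had an unadjusted p under 0.05. Of the 5 missed genes 0 were called by edgeR in any comparison, with 0 at an unadjusted p under 0.05. Their median log2 fold change was -0.05 for metatherian CRX against control, -0.00049 for eutherian CRX against control and -0.05 for metatherian against eutherian CRX.

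The summed share of the members in all counts was small and varied between replicates as much as between conditions. The large subunit took 0.274%, 0.299% and 0.341% of counts in control replicates 1 to 3, 0.294%, 0.306% and 0.375% in eutherian CRX, and 0.299%, 0.306% and 0.295% in metatherian CRX. The small subunit took 0.203%, 0.218% and 0.249% in control, 0.217%, 0.225% and 0.281% in eutherian CRX, and 0.224%, 0.221% and 0.213% in metatherian CRX. The ranges of the 3 conditions overlapped for both subunits. Means were 0.304% ± 0.034 (SD, n = 3), 0.325% ± 0.0437 and 0.300% ± 0.00542 for the large subunit in control, eutherian and metatherian CRX, and 0.223% ± 0.0232, 0.241% ± 0.0352 and 0.219% ± 0.00552 for the small. The ratio of the large to the small subunit sum lay between 1.33 and 1.38 in all 9 libraries.

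**Figure D2:**
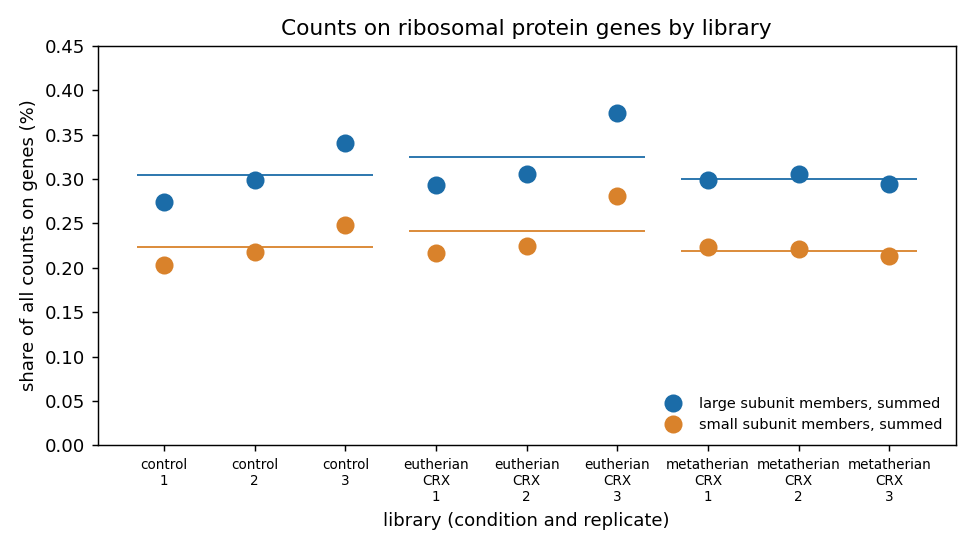
Percentage of all counts on genes that fell on large subunit members (blue) and small subunit members (orange) in each of the 9 libraries, with a line at the mean of each condition. The highest share of both subunits is in eutherian CRX replicate 3 (0.375% and 0.281%), and the 3 conditions overlap.

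Below these sums, single members differed between libraries. CPM values, the counts scaled to library size with TMM factors, were taken on the log2 scale and the control mean of each tested member was subtracted. The result is called its deviation here. With this measure, the SD over the 76 members was 0.672 in metatherian CRX replicate 3 and 0.198 to 0.307 in the other 8 libraries. Over all tested genes the SD was 0.649 in that library and 0.152 to 0.769 in the others, the highest being eutherian CRX replicate 3, so that other genes spread widely in metatherian CRX replicate 3 as well. In metatherian CRX replicate 3, 11 members had a deviation under -1, which is a fall of more than 2-fold, against 0 to 2 members in each other library. These are 14.5% of the members, beside 6.9% of all tested genes in the same library. None had a deviation above 1 in any library.

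These 11 members, picked for their values in that library, were 6 of the small subunit and 5 of the large. The deviations were -3.0 in Rps16, whose tail reaches the peptidyl site, -1.88 in Rpl10a of the L1 stalk, -1.73 in Rpl36, -1.68 in Rplp1, -1.65 in Rps29, -1.35 in Rps13, -1.33 in Rpl27, -1.27 in Rplp2, -1.12 in Rps27, -1.03 in Rps7 and -1.02 in Rps20. They had a median exon length of 615 bases, against 862 in the other 65 tested members. In the same library 46 of 76 members lay below their control mean, a number within the 13 to 56 of the other libraries, and the highest deviations were 0.76 in Rpl39 and 0.66 in Rpl10.

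Rps16 (chr7:28350689-28352698, plus strand, mm10) shows how far a single member ranged. Its CPM was 5.65, 9.18 and 13.3 in control replicates 1 to 3, 5.33, 5.19 and 12.2 in eutherian CRX, and 4.37, 9.07 and 1.08 in metatherian CRX. Each condition held both high and low libraries, and the lowest and highest of the 9 differed 12-fold. The lateral stalk, a set of acidic proteins that recruits elongation factors, also differed between libraries, with a median deviation over Rplp0, Rplp1, Rplp2 and Rpl12 of -0.872 in metatherian CRX replicate 3, -0.365 in replicate 1 and 0.0534 in replicate 2. Of these genes, Rplp1 and Rplp2 are among the 11 members picked above. In the control and eutherian CRX libraries it ranged from -0.341 to 0.187.

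GC content moved with these deviations in that library. Over all tested genes with a GC value, the Spearman correlation of deviation with GC content of the longest coding transcript was -0.49 in metatherian CRX replicate 3, and over the 76 members it was -0.45. The quintile of all genes with the highest GC content (55.9% to 71.3%) had a median deviation of -0.52 and the lowest quintile 0.21. Among members, the 18 with a GC content of at least 55% had a median of -0.48 and the 31 under 50% a median of 0.12. The correlation over all genes was -0.57 in control replicate 1 and 0.42 in control replicate 3, but the gradients there were smaller, with a median of -0.174 and 0.162 in the highest quintile and a correlation over members of -0.24 and 0.017.

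Removing a loess fit on GC content, fitted to all genes in each library, changed the median deviation of small subunit members in metatherian CRX replicate 3 from -0.385 to -0.0784, and that of large subunit members from -0.0701 to -0.00535. The SD over members went from 0.672 to 0.62, and 9 members had a deviation under -1, not all of them among the 11 above. Of the 11, Rpl36 (-0.972), Rplp2 (-0.991) and Rps27 (-0.856) were no longer under -1. Among the 9, Rps16 was at -2.98 after removal and Rps20, with a GC content of only 41.3%, at -1.18. The part of GC content and of any other property of this library in the results was not tested further.

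**Figure D3:**
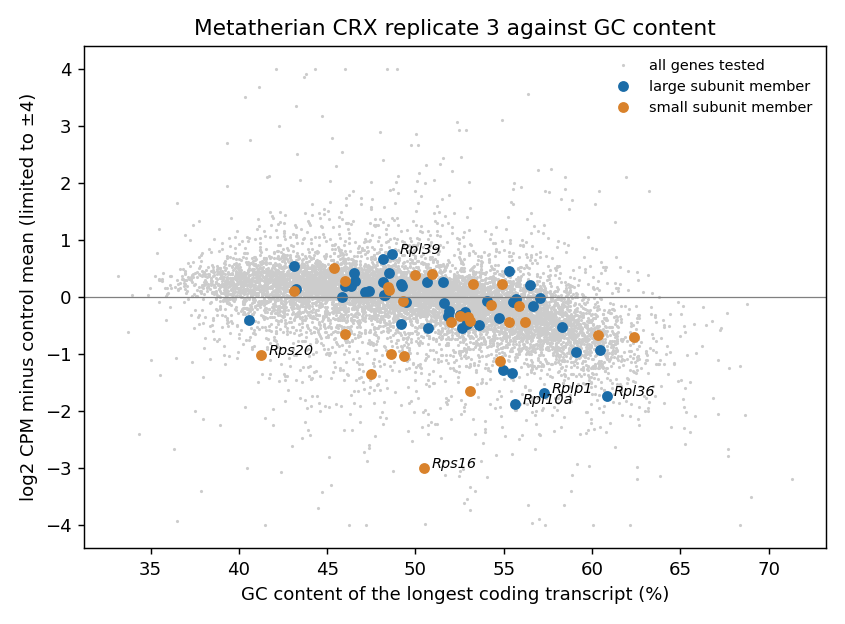
Log2 CPM in metatherian CRX replicate 3 minus the control mean against GC content of the longest coding transcript, for all tested genes with a GC value (grey, limited to ±4) and for members of the large (blue) and small (orange) subunit. Grey and coloured points both slope downward with GC content, and Rps16 at -3.0 is the lowest member.

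Eutherian CRX replicate 3 differed in another way. Its members shifted upward as a set, with a median deviation of 0.168 over large subunit members and 0.18 over small, while the median over all tested genes was -0.00209. Only 13 of the 76 members lay below their control mean there, against 46 and 41 in replicates 1 and 2. The genes of ribosome assembly were higher in this library as well, with a median deviation over 77 genes of 0.378, against 0.0138 and -0.0275 in replicates 1 and 2. They were also high in metatherian CRX replicate 3, at 0.291, where the small subunit members had a median of -0.385 and the large subunit members one of -0.0701.

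**Figure D4:**
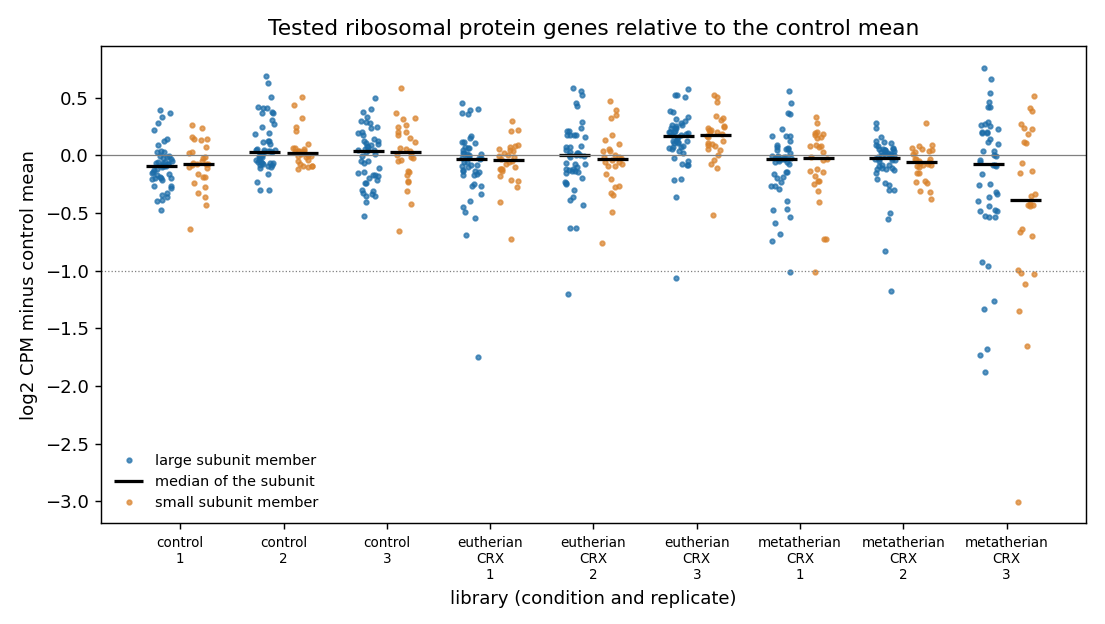
Log2 CPM of each tested member minus its control mean in each of the 9 libraries, large subunit in blue and small subunit in orange, with a bar at each median and a dotted line at a deviation of -1. Metatherian CRX replicate 3 spreads widely with 11 members below the dotted line, and eutherian CRX replicate 3 sits slightly above 0 with medians of 0.168 and 0.18.

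In metatherian CRX against control, no ribosomal protein gene passed the test. With edgeR's quasi-likelihood test and Benjamini-Hochberg adjustment over all genes tested, 0 of 48 large and 0 of 28 small subunit members were called at an adjusted p under 0.05, where 0.0297% of all genes were called. The lowest adjusted p was 0.217 among large and 0.236 among small subunit members. At an unadjusted p under 0.05 there were 1 higher and 1 lower large subunit member and 2 lower small subunit members, 4 of 76, against 9.04% of all genes higher, 10.5% lower and 19.5% in either direction. DESeq2 called 0 members, but the share of all genes it called is not given here. Limma voom with quality weights called 13 large and 4 small subunit members where it called 46.2% of all genes. Without replicate 3 of all 3 conditions, edgeR called Rpl10, Rpl27a and Rps27, where it called 22.2% of all genes.

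The fold changes of the members were near the middle of all genes. The median log2 fold change was -0.06 for the large subunit and -0.10 for the small, against -0.0080 for all genes, and 19 of 48 and 10 of 28 members were above 0, against 48.8% of all genes. Without metatherian CRX replicate 3 the large subunit median was 0.00852 and the small subunit median 0.00664. The 95% intervals lay within a 2-fold change either way for 38 of 48 large and 22 of 28 small subunit members, and within 1.5-fold for 25 and 15.

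Groups that did not overlap between metatherian CRX and control were rare among members, at 3 of 76 against 23.3% of all genes. Rpl24 was higher, against 11% of all genes, and Rpl3 and Rps13 were lower, against 12.3%. Rpl3 (chr15:80077781-80083406, minus strand, mm10), a core protein near the peptidyl transferase centre, had the lowest p of the members. Its CPM was 18.2, 20.1 and 18.2 in control and 16.0, 12.8 and 15.8 in metatherian CRX, so that every metatherian library lay below every control library. The log2 fold change was -0.35 (SE 0.129, edgeR adjusted p = 0.217).

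The other members at the low end of p did not separate as cleanly. Rps20, in the head of the small subunit, had a CPM of 89.5, 112 and 140 in control and 84.4, 90.6 and 55.2 in metatherian CRX (log2 fold change -0.59, edgeR adjusted p = 0.236). Rps27, a zinc-binding protein of the small subunit, had a CPM of 3.18, 4.10 and 1.81 in control and 1.73, 2.44 and 1.31 in metatherian CRX (log2 fold change -0.71, edgeR adjusted p = 0.236). In both the ranges overlapped and the lowest value was that of metatherian CRX replicate 3. Within each replicate number, the block of the fit, the metatherian value lay below the control value in both.

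Rpl27a, whose start region carries the longest pyrimidine run above, lay on the other side. Its CPM was 29.9, 25.8 and 35.6 in control and 38.6, 31.9 and 40.3 in metatherian CRX (log2 fold change 0.28, edgeR adjusted p = 0.238). The ranges overlapped, and within each replicate number the metatherian value of Rpl27a lay above the control value. The lowest log2 fold changes were -0.93 in Rpl10a and -0.91 in Rps16, with 95% intervals from -1.90 to 0.03 and from -2.69 to 0.86. The highest was 0.45 in Rpl39, a small protein of the exit tunnel, with an interval from -0.12 to 1.03.

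By role, the 4 stalk genes gave a median of -0.42 on the log2 scale, all 4 being below 0 and none passing the test. The 8 genes around the peptide exit (Rpl4, Rpl17, Rpl19, Rpl23a, Rpl26, Rpl31, Rpl35 and Rpl39) had a median of 0.06 with 6 above 0. The 4 genes of decoding and messenger entry (Rps2, Rps3, Rps15 and Rps23) had a median of -0.14 with 1 above 0. Of a chosen list of 9 among the genes known from Diamond-Blackfan anaemia, an inherited failure of red cell production, 7 were tested, with a median of -0.18. Replicate 3 lay farthest from control in each of these sets, with median deviations in metatherian CRX replicates 1 to 3 of -0.0214, 0.0113 and 0.203 at the peptide exit, -0.089, 0.0539 and -0.396 in decoding and messenger entry, and -0.119, -0.0306 and -0.439 in the anaemia genes, as given above for the stalk. Rps6, the substrate of S6 kinase, had a log2 fold change of 0.21 (edgeR adjusted p = 0.474), and Rps27a, made as a fusion with ubiquitin, one of -0.04 (adjusted p = 0.912).

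In eutherian CRX against control the members also stayed without a call. The same edgeR test called 0 of 48 large and 0 of 28 small subunit members, where 0.604% of all genes were called (0.0198% higher and 0.584% lower), and the lowest adjusted p values were 0.357 and 0.69. At an unadjusted p under 0.05 there was 1 lower large subunit member and no small one, against 2.23% of all genes higher, 6.34% lower and 8.56% in either direction. DESeq2 called 0 members, but the share of all genes it called is not given here. Limma voom called 2 large subunit members where it called 16.8% of all genes.

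Median log2 fold changes were 0.03 for the large and 0.04 for the small subunit, against 0.0013 for all genes, with 26 of 48 and 20 of 28 members above 0 against 50.3% of all genes. Without eutherian CRX replicate 3 the small subunit median was -0.08. The 95% intervals lay within 2-fold for 41 of 48 and 26 of 28 members. Groups did not overlap in 4 of 76 members, against 14% of all genes. Rpl10, Rpl34 and Rpl36a were higher, against 6.21% of all genes, and Rpl7 was lower, against 7.8%.

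Rpl39l (chr16:10170192-10174911, plus strand, mm10), a paralogue of Rpl39 known from the testis, had the largest change and the lowest p of the members in this comparison. Its CPM was 2.93, 2.73 and 4.78 in control, 0.983, 1.45 and 3.17 in eutherian CRX, and 3.24, 1.89 and 4.92 in metatherian CRX. Replicates 1 and 2 of eutherian CRX were the lowest libraries, and replicate 3 was within the control range. Within each replicate number, the block of the fit, the eutherian value lay below the control value. The log2 fold change was -0.99 (SE 0.288, edgeR adjusted p = 0.357). None of the 75-base windows of Rpl39l occurs in another gene, so its reads can be told from those of Rpl39.

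Rpl39 itself, the core partner of Rpl39l, showed overlapping ranges in all 3 conditions. Its CPM was 14.9, 11.2 and 9.20 in control, 14.9, 16.7 and 13.9 in eutherian CRX, and 17.0, 11.6 and 19.6 in metatherian CRX (log2 fold change 0.38 for eutherian CRX against control, edgeR adjusted p = 0.755). Rpl10, which joins the large subunit late in its assembly, had a CPM of 15.2, 13.7 and 8.35 in control and 16.5, 18 and 17.3 in eutherian CRX. The eutherian libraries were all above the control libraries, but the log2 fold change of 0.47 did not pass the test (edgeR adjusted p = 0.796). In Rpl10, 71.1% of the 75-base windows are shared with other genes.

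The paralogues that replace core proteins did not move as a set. Rpl22l1, the paralogue of Rpl22, had a log2 fold change of -0.44 with an interval from -1.16 to 0.28, and Rpl22 one of -0.0061 with an interval from -0.26 to 0.24. Rps27l, a paralogue of Rps27 known as a p53 target, had 0.27 with an interval from -0.06 to 0.61. Rpl7l1, a paralogue of Rpl7, had 0.20 with an interval from -0.07 to 0.47. With edgeR 0 of the 4 tested paralogues were called in any comparison. The shares of all genes called were 0.0297% and 0.604% for metatherian and eutherian CRX against control, and 0% between them. The 2 members that limma voom called in eutherian CRX against control were both paralogues, Rpl22l1 and Rpl39l.

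In metatherian against eutherian CRX, edgeR called 0 of 48 large and 0 of 28 small subunit members, where 0% of all genes were called. The lowest adjusted p values were 0.32 and 0.473. At an unadjusted p under 0.05 there were 2 higher and 1 lower large subunit members and no small ones, against 7.41% of all genes higher, 4.13% lower and 11.5% in either direction. DESeq2 called 0 members, but the share of all genes it called is not given here. Limma voom called 14 large and 7 small subunit members where it called 48.3% of all genes. Without replicate 3 of all 3 conditions, edgeR called Rpl10 and Rpl27a, where it called 22.5% of all genes.

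Most members were lower in metatherian than in eutherian CRX by a small amount. The median log2 fold change was -0.15 for the large and -0.17 for the small subunit, against -0.0054 for all genes, and 11 of 48 and 6 of 28 members were above 0 against 48.8% of all genes. These medians rested on the third replicates. Without metatherian CRX replicate 3 the large subunit median was -0.05, and without eutherian CRX replicate 3 it was -0.03. Without replicate 3 of all 3 conditions the large subunit median was -0.03 and the small subunit median 0.00475. The 95% intervals lay within 2-fold for 38 of 48 large and 22 of 28 small subunit members.

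Rpl27a had the lowest p of the members. The eutherian libraries stood at 28.5, 27.5 and 28.6 CPM, all below the metatherian libraries given above, with a log2 fold change of 0.38 (SE 0.114, edgeR adjusted p = 0.32). Rpl23 was higher without overlap as well, and these were the only 2 such members, against 6.23% of all genes. Its CPM was 65.4, 66.2 and 63.8 in eutherian and 73.1, 76.3 and 84.5 in metatherian CRX, while the control libraries, at 64.5, 71.1 and 87.6, overlapped with both.

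Lower without overlap were Rpl3, Rpl8, Rpl23a, Rpl34 and Rpl38 of the large subunit and Rps12 and Rps27l of the small, against 5.3% of all genes. Rpl38, whose loss causes the tail-short skeletal phenotype in mice, had a CPM of 11.2, 12.6 and 12.3 in eutherian and 10.5, 9.07 and 5.49 in metatherian CRX (log2 fold change -0.57, SE 0.211, edgeR adjusted p = 0.388). Rpl3 had -0.31 (edgeR adjusted p = 0.433), with eutherian libraries at 18.5, 18 and 18.6 CPM, close to those of control. Rpl39l had 0.90 with overlapping groups (edgeR adjusted p = 0.344). Metatherian CRX replicate 3 held the lowest value of Rpl38 and the highest of Rpl39l.

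**Figure D5:**
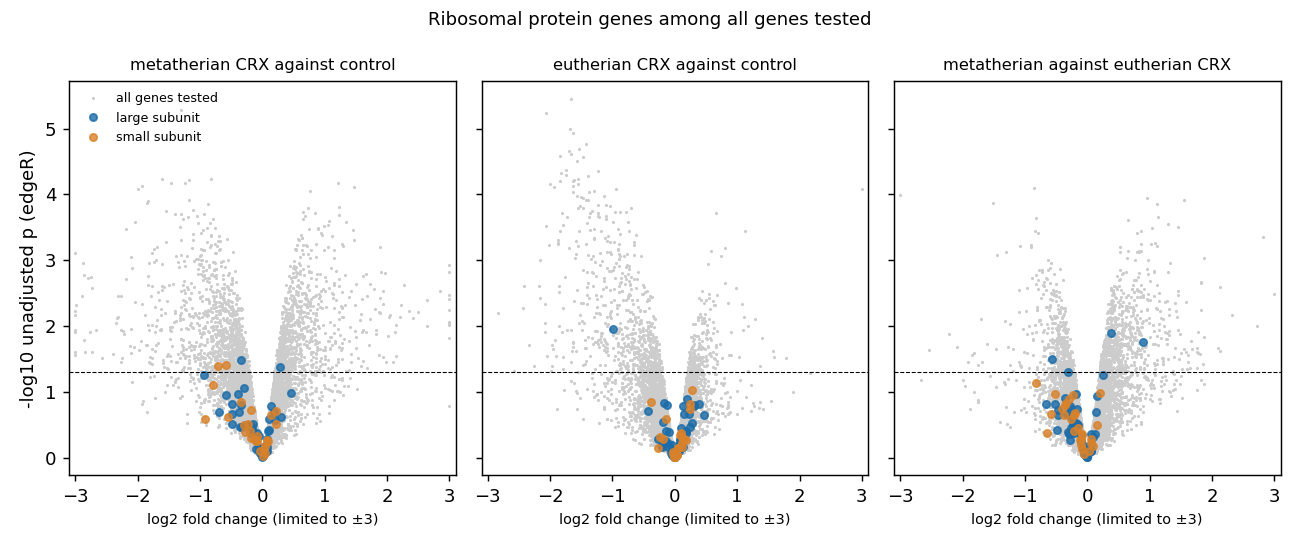
Log2 fold change (limited to ±3) and -log10 of the unadjusted edgeR p of all genes tested (grey) and of the tested large (blue) and small (orange) subunit members in the 3 comparisons, with a dashed line at 0.05. Few members lie above the line in any comparison (4, 1 and 3 of 76), and the member of largest change in eutherian CRX against control is Rpl39l at -0.99.

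The steadiest and the most variable members, picked here for their spread over the 9 libraries, were as follows. Rpl7 varied least, with the highest library 1.17-fold above the lowest, followed by Rpl37 at 1.20-fold and Rps3 at 1.22-fold. Rps16 varied most at 12-fold, followed by Rpl36 at 5.36-fold and Rpl39l at 4.89-fold. The median range of log2 CPM over the libraries was 0.688 for the 76 members and 0.69 for all genes tested, and 0.568 and 0.599 without metatherian CRX replicate 3.

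The genes that build and drive ribosomes gave no call either. EdgeR called only 0.0297%, 0.604% and 0% of all genes in the 3 comparisons, so that the lack of a call does not set these genes apart. Of 80 ribosome assembly genes, 77 were tested and 0 were called by edgeR in any comparison, with medians of 0.14 for metatherian CRX against control, 0.13 for eutherian CRX against control and 0.02 for metatherian against eutherian CRX. Above 0 were 56, 63 and 41 of the 77. The medians against control rested on the third replicates, since the deviations of these genes in replicates 1 to 3 had medians of 0.0264, 0.0944 and 0.291 in metatherian CRX and of 0.0138, -0.0275 and 0.378 in eutherian CRX. Translation factors and other TOP messengers, all 25 of which were tested, had medians of 0.07, 0.02 and 0.04, and 28 tested genes of growth control, among them Myc, Mtor and Larp1, had 0.0099, -0.01 and 0.01. At an unadjusted edgeR p under 0.05 there were 4, 1 and 1 assembly genes, 2, 0 and 2 translation genes and 4, 1 and 2 growth control genes, against 19.5%, 8.56% and 11.5% of all genes. The 2 comparisons with control share their control libraries.

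Proteins of the mitochondrial ribosome, which is built from a separate set of genes, were compared in the same way. Of 77, 75 were tested and 0 were called by edgeR in any comparison, against 0.0297%, 0.604% and 0% of all genes. There were 4, 5 and 4 at an unadjusted p under 0.05, against 19.5%, 8.56% and 11.5% of all genes. Their medians were 0.02 for metatherian CRX against control, 0.15 for eutherian CRX against control and -0.13 for metatherian against eutherian CRX, with 41, 63 and 13 of 75 above 0. In the eutherian libraries their median deviation from control was 0.0996, 0.114 and 0.143 in replicates 1 to 3, beside -0.0388, 0.0752 and -0.0229 in the control libraries.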

How the data were processed

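The data are 9 RNA-seq libraries of MEFs, 3 per condition. The authors aligned paired reads with STAR to mm10 (GRCm38) and deposited raw counts per gene made with featureCounts, without normalization. Which annotation release was counted, whether strand was used and how multi-mapping reads were handled is not given in the sources used here.

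The counts were tested with edgeR 4.0.16 (limma 3.58.1, R 4.3.3) in 1 fit of all 9 libraries. Genes had to pass filterByExpr and to exceed 2 FPKM on average in 1 or more conditions. The fit used TMM factors, the quasi-likelihood test and the replicate number as a block, since the study prepared samples in pairs, with Benjamini-Hochberg adjustment over all 10100 genes. FPKM was computed from counts and merged exon length, and log2 CPM with a prior count of 2. The standard error was taken from the fold change and its F statistic (the size of the former over the root of the latter). DESeq2 1.42.0, limma voom with quality weights, other scalings and filters, GC offsets and leaving out libraries were alternatives. The test was also run on simulated data, with an outcome that is not given here.

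GC content and shared windows came from GENCODE M21 transcripts, with a value for 82 of 82 members and 99.6% of genes tested, and start regions from RefSeq.

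Named per comparison and subunit were the 5 members of lowest p, the 3 highest and 3 lowest fold changes, and fixed role groups and paralogues, of which those that show most are printed. Members and lists were chosen with earlier results of these data known. Depth was 54145701 to 94699657 counts, and replicates differed by more than sampling noise. Within conditions, control included, chi-square per degree of freedom was 19.6 to 62.1 between replicates 1 and 2. Between replicate 3 and either of them it was 239 to 706. A few genes are not reported here.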

Additional observations from a re-analysis of the deposited data

How the results depend on the processing

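No alternative to edgeR with the block other than limma voom and leaving out replicate 3 of every condition called a member. Several of the others, such as the fit without the replicate block, called 0% of all genes as well. Without eutherian CRX replicate 3 the share of all genes was 8.83% in metatherian CRX against control. Limma voom with quality weights called 13 large and 4 small subunit members in metatherian CRX against control, 2 large in eutherian CRX against control (Rpl22l1 and Rpl39l), and 14 large and 7 small in metatherian against eutherian CRX, where it called 46.2%, 16.8% and 48.3% of all genes. Without replicate 3, edgeR called 2 large (Rpl10 and Rpl27a) and 1 small (Rps27) in metatherian CRX against control and 2 large (Rpl10 and Rpl27a) in metatherian against eutherian CRX, where 22.2% and 22.5% of all genes were called. The cause was not tested.

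Medians moved as follows. For metatherian CRX against control, the large subunit median was 0.00354 with GC offsets and 0.021 with GC offsets without metatherian CRX replicate 3, both chosen after seeing the data. With GC offsets the small subunit median there was -0.0118, those of eutherian CRX against control were 0.0851 (large) and 0.11 (small), and those of metatherian against eutherian CRX -0.133 and -0.111, against 0.0303, 0.0606 and -0.0274 for all genes. Leaving out libraries gave -0.144 to 0.00852 for the large subunit and -0.261 to 0.00664 for the small, the highest values being those without metatherian CRX replicate 3. For eutherian CRX against control the ranges were -0.0172 to 0.0784 (large) and -0.08 to 0.0999 (small), the lowest small subunit value being that without eutherian CRX replicate 3. For metatherian against eutherian CRX they were -0.186 to -0.0273 (large) and -0.267 to 0.00475 (small), and the large subunit median was -0.0145 with limma voom. Without the paralogues the summed share in metatherian CRX was 0.29% (large) and 0.209% (small).

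Among named members, none of which was called by edgeR with all libraries, some changed sign. In metatherian CRX against control, the log2 fold change of Rps15a was -0.016 with limma voom and -0.054 to 0.44 over the fits that leave out libraries. In eutherian CRX against control those fits gave -0.75 to 0.10 for Rpl10a, -0.99 to 0.22 for Rps16 and -0.44 to 0.073 for Rps26. In metatherian against eutherian CRX they gave -0.17 to 0.33 for Rps15a and -1.55 to 0.26 for Rps16. In that comparison Rps15a was -0.0050 with GC offsets, and with GC offsets without metatherian CRX replicate 3 it was -0.17 and Rps16 0.17. Rps14 was 0.00027 there with limma voom.

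Without the replicate block 0 members were called in each comparison, where 0% of all genes were called. Medians in that fit were -0.0587 and -0.105 (large, small) for metatherian CRX against control, 0.0333 and 0.0274 for eutherian CRX and -0.151 and -0.164 between them. Same-numbered libraries deviated together (r above 0.1) in 8 of 9 pairs, with a lowest r of 0.0034, and so did 5 of 18 differently numbered pairs, and whether a number marks a pair was not settled by this.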
